A study of Mus musculus with 12 samples.

Results

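The cell cycle and proliferation genes described here are a list of 40 mouse genes: proliferation markers, genes of S phase and mitosis, cyclins, cyclin-dependent kinases (CDKs) and CDK inhibitors. A gene was measured if the array had a probe set (a group of short probes for a transcript) annotated to exactly 1 gene symbol, and, of several such probe sets, the one with the highest average on the 12 arrays stood for it. By this rule 39 of the 40 genes were measured, out of 18193 genes in all. Ccnb1 was not analysed here.

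The cell cycle is driven by CDKs, which are active only when bound to a cyclin. D-type cyclins with Cdk4 or Cdk6 act in G1 and release E2F transcription factors from the retinoblastoma protein; E2F factors switch on the genes of DNA synthesis, and E-, A- and B-type cyclins then carry the cell through S phase and mitosis. CDK inhibitors oppose this. The INK4 proteins (genes Cdkn2a, Cdkn2b and Cdkn2c) block Cdk4 and Cdk6, and the CIP/KIP proteins p21 (Cdkn1a), p27 (Cdkn1b) and p57 (Cdkn1c) bind several cyclin-CDK complexes. Most dermal fibroblasts of adult skin are at rest and re-enter the cycle after wounding and in the stroma of tumours.

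RNA was measured on 12 Affymetrix arrays in fibroblasts that were sorted by flow cytometry, as GFP-positive cells, from the back skin of 7-week-old male mice. Mice of all groups carried the PDGFRα-H2B-eGFP reporter, in which the PDGF receptor alpha locus, active in most dermal fibroblasts, drives a nuclear fluorescent protein. The groups, of 4 arrays each, were wild-type skin (WT, labelled normal), skin of InvEE mice (labelled inflammation) and tumour-associated skin of InvEE mice (Pap, labelled Tumor-associated). The InvEE transgene is an activated MEK1 kinase under the control of the involucrin promoter, whose activity lies in the suprabasal epidermis and not in fibroblasts, and both InvEE and Pap mice carried it. The labels do not say whether animals were pooled, nor whether each sample of a group is a different animal. The p-values therefore rest on the spread among the samples, part of which may be technical.

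All values below are normalised log2 levels, so that a difference of 1 is a 2-fold change of signal, and levels of different genes are not compared. Differences were tested with limma over all 18193 genes. A gene is said to have risen or fallen only where its Benjamini-Hochberg adjusted p was under 0.05 (two-sided), and SE is the standard error of a difference. Of the 7 fibroblast markers all were well measured in every group, with array means between 13.09 and 13.50. Pdgfra, the gene whose locus drives the reporter, rose by 0.93 in Pap against WT (limma adjusted p = 0.0349), from 9.94 to 10.87.

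Several arrays and markers differed between groups apart from the cell cycle genes. WT 4 and Pap 4 had the highest lower quartile of their group in the deposited values, at 5.43 and 5.50, and the highest level of the poly-A spike controls, at 12.24 and 12.50. The spikes lay between 7.76 and 8.60 on the InvEE arrays, below every WT array (9.24 to 12.24) and every Pap array (9.78 to 12.50). The mean of 12 keratinocyte markers lay between 6.34 and 6.78 in WT, between 7.59 and 8.88 in InvEE and between 6.62 and 8.33 in Pap, and 2 of these genes rose in InvEE and 3 in Pap against WT. In Pap against InvEE 1 of them fell. Of the 12, 5 lay below the level called dim here (6.16, the lowest 40% of probe sets) in WT, 1 in InvEE and 2 in Pap. Of 5 neutrophil markers 4 were measured. Their mean lay between 5.80 and 6.001 in WT, between 5.64 and 6.13 in InvEE and between 6.09 and 7.17 in Pap, 2 of them rose in Pap, and 2 of the 4 were dim in WT, 3 in InvEE and 0 in Pap. The Gapdh 3′ minus 5′ difference, a sign of RNA quality, lay between 1.59 and 2.28 in WT, between 1.62 and 3.37 in InvEE and between 2.29 and 3.76 in Pap, so that Pap lay wholly above WT. Of 6 pericyte and smooth muscle markers, 1 fell in InvEE against WT, 2 in Pap against WT and 3 in Pap against InvEE. Of 9 macrophage and monocyte markers, 1 fell in Pap against WT. Over all genes, 0.258% rose and 0.275% fell in InvEE against WT, and 4.85% rose and 4.8% fell in Pap against WT. In Pap against InvEE 3.67% rose and 3.04% fell. The part of these array and marker differences in the results below was not tested, except where a value bears on it directly. In sorted bulk samples, fewer cells of a type and less RNA per cell cannot be told apart.

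The clearest differences lay among the CDK inhibitors. In Pap fibroblasts Cdkn2a and Cdkn2b rose about 4- to 5-fold against both WT and InvEE, and Cdkn1b fell about 2-fold, while no inhibitor rose or fell in InvEE against WT. Of the 6 inhibitors measured, 2 rose and 1 fell in each of the Pap comparisons. Over all 39 members, 5 rose and 1 fell in Pap against WT, where 4.85% of all genes rose, 4.8% fell and 9.65% did either. Against InvEE, 3 members rose and 2 fell, where the shares of all genes were 3.67%, 3.04% and 6.71%.

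Cdkn2a encodes p16, an INK4 inhibitor of Cdk4 and Cdk6, and ARF, which stabilises p53, from separate first exons. Its level was 6.38, 6.56, 6.18 and 6.80 on the WT arrays 1 to 4, 6.62, 6.17, 6.23 and 6.16 on the InvEE arrays, and 8.55, 8.22, 8.03 and 9.21 on the Pap arrays. All 4 Pap arrays lay above all 8 others, and the WT and InvEE arrays overlapped. Cdkn2a rose by 2.02 ± 0.24 (SE, n = 4 per group) in Pap against WT, or 4.06-fold (limma adjusted p = 0.000299), and by 2.21 ± 0.24 against InvEE (limma adjusted p = 0.000303). The difference between InvEE and WT was -0.19 (95% interval -0.72 to 0.34). Whether its single probe set reads p16, ARF or both was not examined here.

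Cdkn2b encodes p15, the INK4 inhibitor that TGF-beta signalling is known to induce. Its level was 7.62, 6.78, 7.54 and 6.48 in WT, 7.55, 7.19, 7.28 and 7.49 in InvEE, and 9.56, 9.57, 9.70 and 9.35 in Pap. Again every Pap array lay above every other array, and the SD of the Pap arrays was 0.15. Cdkn2b rose by 2.44 ± 0.24 in Pap against WT, or 5.43-fold (limma adjusted p = 7.2e-05), and by 2.17 ± 0.24 against InvEE (limma adjusted p = 0.000303). Both rises of Cdkn2b held under all 25 alternative settings, from 2.10 to 2.82 on the log2 scale, and both rises of Cdkn2a under the 24 that measured it, from 1.30 to 2.60.

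**Figure D1:**
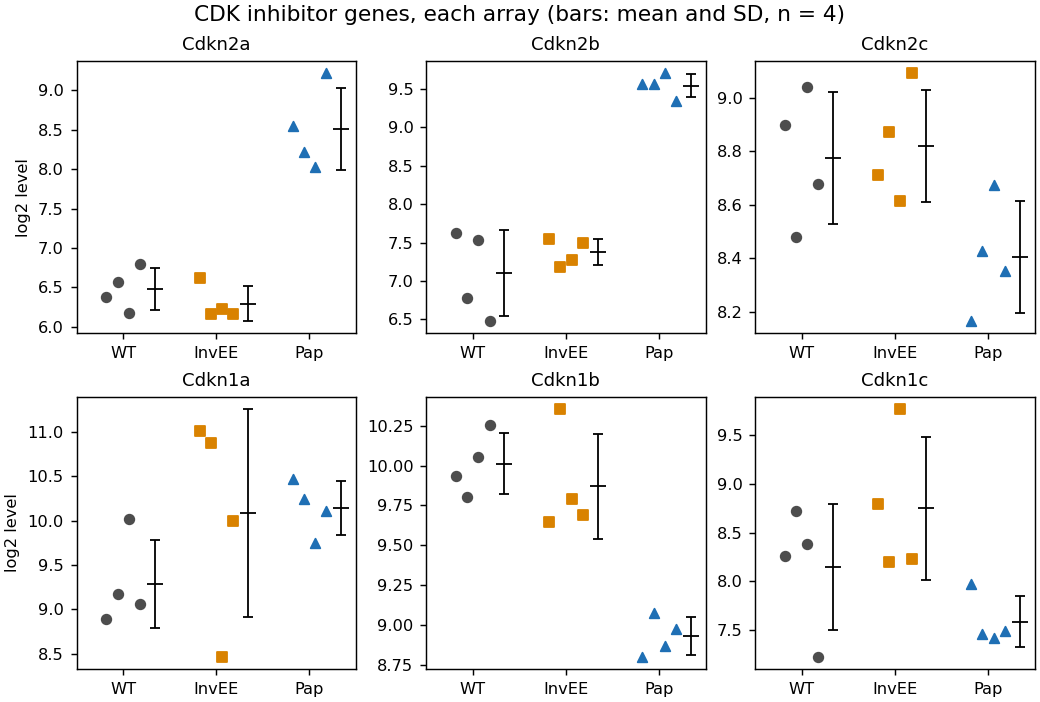
Log2 level (y axis) of the 6 CDK inhibitor genes on each of the 12 arrays, by group (x axis: WT grey circles, InvEE orange squares, Pap blue triangles); bars are the group mean and SD, n = 4, and each panel has its own scale. Cdkn2a and Cdkn2b lie higher on all 4 Pap arrays than on any other array and Cdkn1b lower, while the groups overlap for Cdkn1a and Cdkn2c.

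The marker levels beside these rises were as follows. InvEE arrays had the highest keratinocyte mean of the groups (8.13 ± 0.56, SD), and their Cdkn2a and Cdkn2b levels overlapped those of WT. On Pap 1 the keratinocyte mean was 6.62 and the neutrophil mean 6.09, inside the ranges of WT and of InvEE respectively, and Cdkn2a was at 8.55 and Cdkn2b at 9.56 on that array. The keratinocyte mean hides single markers. Krt1 (6.33), Krt14 (7.65), Krt6a (7.11) and Dsp (7.98) lay above every WT array on Pap 1, and no other keratinocyte marker did. Krt6a was highest on Pap 4, at 10.55. The other 3 Pap arrays had neutrophil means between 6.89 and 7.17, above all WT and InvEE arrays, and Pap 4 had both the highest neutrophil mean and the highest Cdkn2a level (9.21). The part of the keratinocyte markers, of the neutrophil markers and of the Gapdh difference in the rises was not tested. Without WT 4 and Pap 4 both genes still rose in both comparisons.

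Cdkn2a and Cdkn2b are neighbours on chromosome 4, with 0 protein-coding genes between them. The promoter windows of these 2 genes are shown because both rose in the same samples, and that of Cdkn1b because it fell; each runs from 250 bases before to 50 bases after a transcript's start, 5′ to 3′ on the gene's strand (RefSeq, GRCm38.p6). Capitals mark matches on either strand to TTTNNCGC (an E2F-type motif), CCAAT (the CCAAT box) and TTTGAA (the CHR, or cell cycle genes homology region, element).
Cdkn2b (chr4:89310983-89311282, minus strand): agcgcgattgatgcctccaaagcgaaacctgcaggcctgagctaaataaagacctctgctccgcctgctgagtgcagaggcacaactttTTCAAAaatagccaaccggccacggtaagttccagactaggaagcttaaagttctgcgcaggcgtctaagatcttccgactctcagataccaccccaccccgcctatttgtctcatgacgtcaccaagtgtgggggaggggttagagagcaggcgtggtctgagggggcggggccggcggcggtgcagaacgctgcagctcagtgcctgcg
Cdkn2a (chr4:89294570-89294869, minus strand): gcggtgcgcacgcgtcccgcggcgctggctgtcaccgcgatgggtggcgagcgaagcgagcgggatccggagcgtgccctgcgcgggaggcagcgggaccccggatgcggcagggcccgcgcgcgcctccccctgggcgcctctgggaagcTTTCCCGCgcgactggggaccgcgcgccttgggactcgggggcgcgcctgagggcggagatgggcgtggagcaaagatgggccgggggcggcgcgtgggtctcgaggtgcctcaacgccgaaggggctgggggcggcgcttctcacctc
Cdkn2a (chr4:89282143-89282442, minus strand): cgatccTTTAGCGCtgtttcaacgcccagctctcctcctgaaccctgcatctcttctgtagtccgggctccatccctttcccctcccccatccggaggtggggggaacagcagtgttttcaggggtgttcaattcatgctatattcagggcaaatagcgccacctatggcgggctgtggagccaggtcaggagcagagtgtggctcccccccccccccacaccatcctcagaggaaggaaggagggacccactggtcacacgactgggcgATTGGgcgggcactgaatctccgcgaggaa
Cdkn1b (chr6:134920151-134920450, plus strand): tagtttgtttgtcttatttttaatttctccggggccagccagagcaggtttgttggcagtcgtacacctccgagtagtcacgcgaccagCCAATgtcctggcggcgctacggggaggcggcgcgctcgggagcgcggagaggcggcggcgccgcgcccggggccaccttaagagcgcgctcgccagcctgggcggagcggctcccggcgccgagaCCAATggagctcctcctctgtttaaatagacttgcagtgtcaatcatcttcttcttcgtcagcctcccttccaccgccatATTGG
Both Cdkn2a windows held the E2F-type motif, which 5.17% of all 32851 windows held, and the Cdkn2b window did not. The Cdkn2b window held a CHR match on the opposite strand (17.9% of all windows held a match). The Cdkn1b window held 3 CCAAT boxes, which 37.4% of all windows held at least once. All 4 windows held the GC box GGGCGG, as did 35.7% of all windows. A match is only a run of letters, and binding was not measured.

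Cdkn1b, which encodes p27, an inhibitor typical of resting cells, was at 9.94, 9.80, 10.05 and 10.25 in WT, 9.65, 10.35, 9.79 and 9.69 in InvEE, and 8.80, 9.07, 8.87 and 8.98 in Pap. The Pap arrays lay below all others without overlap. Cdkn1b fell by 1.08 ± 0.18 in Pap against WT, or 2.12-fold (limma adjusted p = 0.00234), and by 0.94 ± 0.18 against InvEE (limma adjusted p = 0.00849). A second probe set of the gene differed by -2.28 ± 0.50 and -1.86 ± 0.50, with adjusted p of 0.0149 and 0.05 over all probe sets (limma). The fall against WT held under all 25 alternatives. That against InvEE was lost in 3: with each array shifted to an equal ribosomal protein mean (-0.55, limma adjusted p = 0.109), with the most variable probe set (-1.86, limma adjusted p = 0.051) and with spike level added to the model (-1.09, limma adjusted p = 0.0961).

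The other inhibitors passed no test. Cdkn1a, the p53 target p21, was at 8.89, 9.18, 10.01 and 9.06 in WT, 11.01, 10.88, 8.47 and 9.99 in InvEE, and 10.47, 10.25, 9.75 and 10.10 in Pap. It was spread most widely in InvEE, over more than the range of both other groups. Its difference from WT was 0.86 ± 0.47 in Pap (limma adjusted p = 0.32) and 0.80 ± 0.47 in InvEE (limma adjusted p = 0.426). A second Cdkn1a probe set did pass in Pap against WT (1.27 ± 0.29, adjusted p = 0.0194 over all probe sets, limma) and gave 1.21 ± 0.29 in InvEE (limma adjusted p = 0.101). Cdkn1c, which encodes p57, was at 8.26, 8.72, 8.39 and 7.23 in WT, 8.79, 8.20, 9.76 and 8.23 in InvEE, and 7.97, 7.46, 7.42 and 7.49 in Pap. Every Pap value lay below every InvEE value, by -1.16 ± 0.37 on average (limma adjusted p = 0.0833). Cdkn2c, which encodes the INK4 inhibitor p18, differed by -0.37 in Pap from WT (limma adjusted p = 0.231) and by 0.05 in InvEE (limma adjusted p = 0.91), with overlapping groups.

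Among the 7 cyclins measured, Ccnd2 rose in Pap against InvEE, and none passed the test in the other comparisons. Cyclin D2, its product, pairs with Cdk4 and Cdk6 in G1. Ccnd2 was at 10.56, 10.29, 10.18 and 11.42 in WT, 9.25, 9.31, 10.27 and 10.15 in InvEE, and 11.82, 11.22, 11.00 and 11.44 in Pap. All Pap arrays lay above all InvEE arrays, and WT 4 lay among the Pap arrays. Ccnd2 rose by 1.62 ± 0.32 in Pap against InvEE, or 3.08-fold (limma adjusted p = 0.0112). All 7 probe sets of the gene gave a positive difference there, from 1.10 to 2.38, and 6 of the 7 passed the test over all probe sets (limma). Against WT the difference was 0.76 ± 0.32 (limma adjusted p = 0.179), and 4 of the 6 other probe sets passed, from 0.92 to 1.88. The rise against InvEE was lost when the spike level, which separates InvEE from both other groups, was a covariate (0.92, limma adjusted p = 0.396), and held under the other 24 alternatives.

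The 2 other D-type cyclins, which also work with Cdk4 and Cdk6, showed no difference that passed the test. Ccnd1 was between 8.40 and 9.45 in WT, between 8.06 and 9.81 in InvEE and between 8.75 and 10.33 in Pap. Its difference from WT was 0.01 in InvEE and 0.39 in Pap, and its other 2 probe sets gave the opposite sign. One gave -0.63 in InvEE and -0.51 in Pap, with both groups wholly below WT, and the other gave -0.23 and -0.19. Neither passed the test. Ccnd3 differed by -0.42 ± 0.25 in Pap from InvEE (limma adjusted p = 0.286), while its other 2 probe sets passed there with -0.80 and -2.23 over all probe sets (limma). The probe sets of Ccnd3 disagreed on size, and in Pap against WT also on sign (0.08 for the probe set used, -0.17 and -2.11 for the others).

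Ccne1 and Ccne2 encode E-type cyclins, which drive entry into S phase with Cdk2. Ccne1 was at 7.66, 7.12, 7.53 and 7.27 in WT, 7.82, 7.88, 7.82 and 7.51 in InvEE, and 8.07, 7.77, 7.76 and 8.36 in Pap. All Pap values lay above all WT values, by 0.59 ± 0.18 (limma adjusted p = 0.059). Ccne2 was dim in every group and widely scattered, between 3.80 and 7.64 in Pap. Ccna2, the A-type cyclin of S phase and G2, differed by 0.51 ± 0.36 in InvEE and by 0.08 ± 0.36 in Pap from WT (limma adjusted p = 0.502 and 0.937).

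Ccnb2 encodes a B-type cyclin, which activates Cdk1 for mitosis. It was at 5.82, 6.68, 6.68 and 6.63 in WT, 7.62, 7.35, 7.37 and 7.50 in InvEE, and 6.70, 6.74, 7.47 and 6.55 in Pap. All InvEE arrays lay above all WT arrays, by 1.01 ± 0.24 (limma adjusted p = 0.0904), and Pap overlapped both groups. The kinases themselves passed no test in any comparison. Cdk1, the mitotic kinase, lay between 7.26 and 8.48 in WT, between 7.98 and 8.34 in InvEE and between 7.95 and 8.16 in Pap. Cdk4 was at 12.14 on Pap 4 and between 9.35 and 10.61 on the other 11 arrays, and Cdk6 differed by less than 0.30 between any groups.

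In InvEE against WT none of the 39 members passed the test (limma; 0.533% of all genes did), and 13 had an unadjusted p under 0.05, 11 of them with a positive difference (15.6% of all genes had such a p). The difference was positive for 30 members and negative for 9, with a median of 0.36 where the median of all genes was -0.09. For 10 members, or 25.6%, all InvEE arrays lay above all WT arrays, where 5.07% of all genes did so, and for E2f1 alone all lay below, as for 10.2% of all genes. The 10 were Mki67, Top2a, Ccnb2, Mcm5, Mcm6, Mcm7, Rrm2, Cdc20, Birc5 and Tpx2, which act in DNA replication and mitosis or mark dividing cells. Keratinocyte markers were higher and spike controls lower on the same InvEE arrays, and their part in this was not tested. With equal ribosomal protein means 26 differences were positive and the median was 0.17, and 13 members again had an unadjusted p under 0.05. With the spike level as a covariate 28 were positive, 3 members had such a p, and the signs of Mcm6 (-1.14) and Pcna (-0.22) turned.

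In Pap against WT, 27 differences were positive and 12 negative, with a median of 0.32 where all genes had 0.04. All Pap arrays lay above all WT arrays for 7 members (17.9%; 7.22% of all genes) and below for Cdkn1b (6.56% of all genes). An unadjusted p under 0.05 was found for 13 members here (22.4% of all genes) and for 12 in Pap against InvEE (26.5% of all genes). In Pap against InvEE, 18 were positive and 21 negative, and the median was -0.15 where all genes had 0.12; it turned to 0.24 with equal ribosomal protein means and to 0.12 with the spike covariate. Pap lay wholly above InvEE for 4 members (10.3%; 14.5% of all genes) and wholly below for 4 (6.66% of all genes). The comparisons share their groups, so they are not independent of each other.

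**Figure D2:**
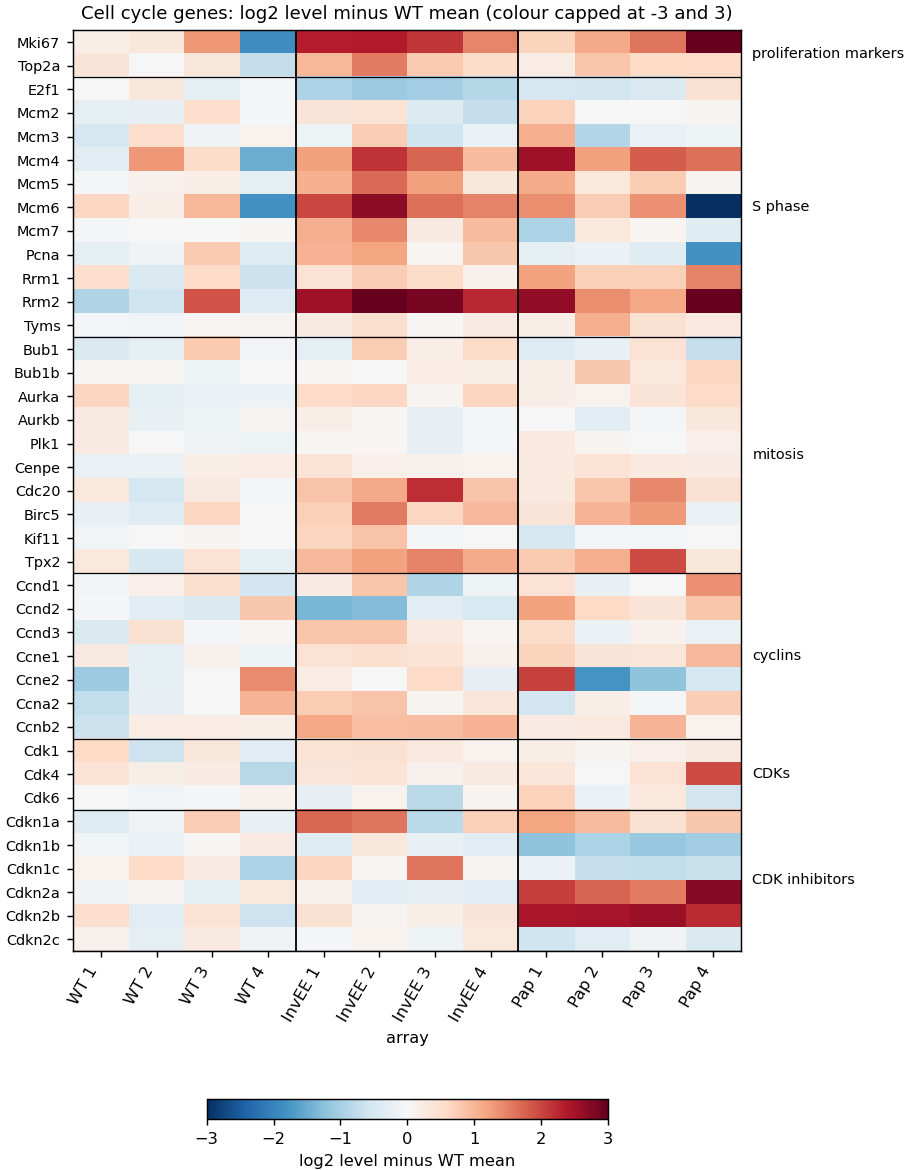
Log2 level of the 39 measured genes (rows, grouped by role) on each of the 12 arrays (columns), drawn as the difference from the WT mean of the gene; red is higher and blue lower, with colours capped at -3 and 3. The INK4 genes Cdkn2a and Cdkn2b are deep red on the 4 Pap arrays alone, and Mki67, Rrm2, Cdc20 and Tpx2 are red on all 4 InvEE arrays.

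The members of the S phase group act in DNA replication or drive its genes. Of the 11, 3 (Mcm4, Rrm1 and Rrm2) rose in Pap against WT (4.85% of all genes did) and none passed in InvEE against WT (0.533%). Mcm7 fell in Pap against InvEE, where 3.04% of all genes fell. The mean of the 11 per array was 7.51, 7.72, 8.10 and 7.18 in WT, 8.44, 8.86, 8.20 and 8.12 in InvEE, and 8.46, 8.01, 8.11 and 7.77 in Pap. Every InvEE array lay above every WT array in this mean, and the Pap arrays overlapped both. The median difference of the 11 genes was 0.77 in InvEE against WT, 0.20 in Pap against WT and 0.02 in Pap against InvEE.

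Rrm1 and Rrm2 encode the subunits of ribonucleotide reductase, which makes the building blocks of DNA. Rrm2 was at 5.33, 5.61, 8.10 and 5.84 in WT, 8.75, 9.30, 9.06 and 8.48 in InvEE, and 8.88, 7.61, 7.37 and 9.56 in Pap. WT 3 stood above the other WT arrays and reached the Pap range, while the InvEE arrays lay above all WT arrays. Rrm2 rose by 2.14 ± 0.60 in Pap against WT (limma adjusted p = 0.044) and differed by 2.68 ± 0.60 in InvEE (limma adjusted p = 0.0773). Its other 2 probe sets differed by -0.14 and -0.27 in Pap and by 0.00 and 0.46 in InvEE, so the rise rests on 1 probe set. It held under 9 of 25 alternatives, turned to -0.27 with probe sets of the plain type, and passed without WT 3 (2.76), Pap 2 or Pap 3 and not without any other single array. Rrm1 was at 8.45, 7.51, 8.53 and 7.30 in WT, 8.39, 8.68, 8.50 and 8.07 in InvEE, and 9.15, 8.66, 8.65 and 9.43 in Pap, with Pap wholly above WT. It rose by 1.03 ± 0.30 (limma adjusted p = 0.0485), which held under 6 of 25 alternatives; another probe set gave -0.33, and among single arrays the call held only without WT 1 or WT 3.

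The MCM proteins form the ring-shaped helicase that opens DNA at origins of replication. Mcm4 was at 6.35, 7.99, 7.24 and 5.20 in WT, 7.93, 8.86, 8.44 and 7.64 in InvEE, and 9.25, 7.93, 8.52 and 8.36 in Pap. WT 2 reached the lowest arrays of both other groups. Mcm4 rose by 1.82 ± 0.51 in Pap against WT (limma adjusted p = 0.0448) and differed by 1.52 ± 0.51 in InvEE (limma adjusted p = 0.198). The rise held under 8 of 25 alternatives, and among single arrays only without WT 2; its second probe set differed by 0.70 ± 0.31.

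Mcm7 was at 8.49, 8.52, 8.55 and 8.56 in WT, 9.63, 9.97, 8.81 and 9.47 in InvEE, and 7.58, 8.84, 8.59 and 8.18 in Pap. The WT arrays lay within a very narrow range, InvEE lay wholly above it, and Pap 2 lay just above InvEE 3. Mcm7 fell by 1.17 ± 0.28 in Pap against InvEE (limma adjusted p = 0.029), and its difference in InvEE from WT was 0.94 ± 0.28 (limma adjusted p = 0.151). All 3 other probe sets gave a negative difference in Pap against InvEE, from -1.64 to -0.27, and none of them passed. The fall held under 13 of the 24 alternatives that measured it. Single arrays whose omission ended it were InvEE 1, InvEE 2, InvEE 4, Pap 1 and Pap 4. Mcm7 is 1 of the genes with an E2F-type motif in a promoter window, while its other window (chr5:138171217-138171516) held no such motif. The first window was picked for the motif. It is shown as an example of the S phase group (RefSeq, GRCm38.p6, 5′ to 3′ on the gene's strand, capitals as above).
Mcm7 (chr5:138171834-138172133, minus strand): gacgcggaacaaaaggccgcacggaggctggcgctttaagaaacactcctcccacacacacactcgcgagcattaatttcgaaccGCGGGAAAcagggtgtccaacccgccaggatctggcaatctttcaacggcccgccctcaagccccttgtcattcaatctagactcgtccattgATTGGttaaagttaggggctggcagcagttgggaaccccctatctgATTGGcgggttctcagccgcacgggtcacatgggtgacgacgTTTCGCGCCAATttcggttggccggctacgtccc
Its last run of capitals is an E2F-type match that overlaps a CCAAT box. Of the 11 windows of S phase members, 5 (45.5%) held the E2F-type motif and 9 (81.8%) a CCAAT box, against 5.17% and 37.4% of all windows.

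On the probe sets used, Mcm5 and Mcm6 lay wholly higher in InvEE than in WT. Mcm5 was at 6.53, 6.69, 6.77 and 6.26 in WT, 7.62, 8.27, 7.80 and 6.91 in InvEE and 7.68, 6.88, 7.31 and 6.64 in Pap, a difference of 1.09 ± 0.29 in InvEE (limma adjusted p = 0.116). The other 2 probe sets of Mcm5 gave 0.82 and -0.16 in InvEE against WT, both with overlapping groups. Mcm6 was at 7.98, 7.56, 8.33 and 5.52 in WT, 9.34, 10.03, 8.99 and 8.84 in InvEE, and 8.74, 8.08, 8.72 and 3.83 in Pap. Its difference from WT was 1.96 ± 0.97 in InvEE (limma adjusted p = 0.35) and 0.00 in Pap, or 1.17 without Pap 4. With spike level added to the model the InvEE difference turned to -1.14 and that of Pap from InvEE went from -1.96 to 1.72, and of the other 2 probe sets of Mcm6 one gave 1.36 in InvEE against WT and the other -0.36. Mcm2 and Mcm3 differed by less than 0.30 between any groups on the probe sets used, with all groups overlapping. The other Mcm2 probe set gave 1.01 in InvEE and 0.84 in Pap against WT, and the other 4 of Mcm3 gave -0.46 to 0.49 in InvEE against WT, the lowest with InvEE wholly below WT; none passed.

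Pcna encodes the sliding clamp of DNA polymerase. It was at 9.97, 10.16, 11.07 and 9.90 in WT, 11.31, 11.46, 10.32 and 11.08 in InvEE, and 10.01, 10.10, 9.92 and 8.45 in Pap. The Pap arrays lay wholly below InvEE, by -1.42 ± 0.39 (limma adjusted p = 0.0517), and the difference in InvEE from WT was 0.77 ± 0.39 (limma adjusted p = 0.366). Tyms, the thymidylate synthase, lay wholly higher in Pap than in WT by 0.51 ± 0.19 (limma adjusted p = 0.121), and was dim in WT and InvEE. The other 3 Tyms probe sets gave the opposite sign in Pap against WT, from -0.37 to -0.04.

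E2f1, a transcription factor that drives many S phase genes, was at 8.65, 8.97, 8.34 and 8.60 in WT, 7.70, 7.55, 7.61 and 7.78 in InvEE, and 8.13, 8.09, 8.21 and 9.10 in Pap. InvEE lay wholly below both other groups, and Pap overlapped WT. The difference in InvEE from WT was -0.98 ± 0.22 (limma adjusted p = 0.0844), and the difference of Pap from InvEE was 0.72 ± 0.22 (limma adjusted p = 0.0763). The first passed the test under 5 of 25 alternatives, and its value over all 25 lay between -1.17 and -0.55. Its other 2 probe sets gave -1.09 and -0.57.

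**Figure D3:**
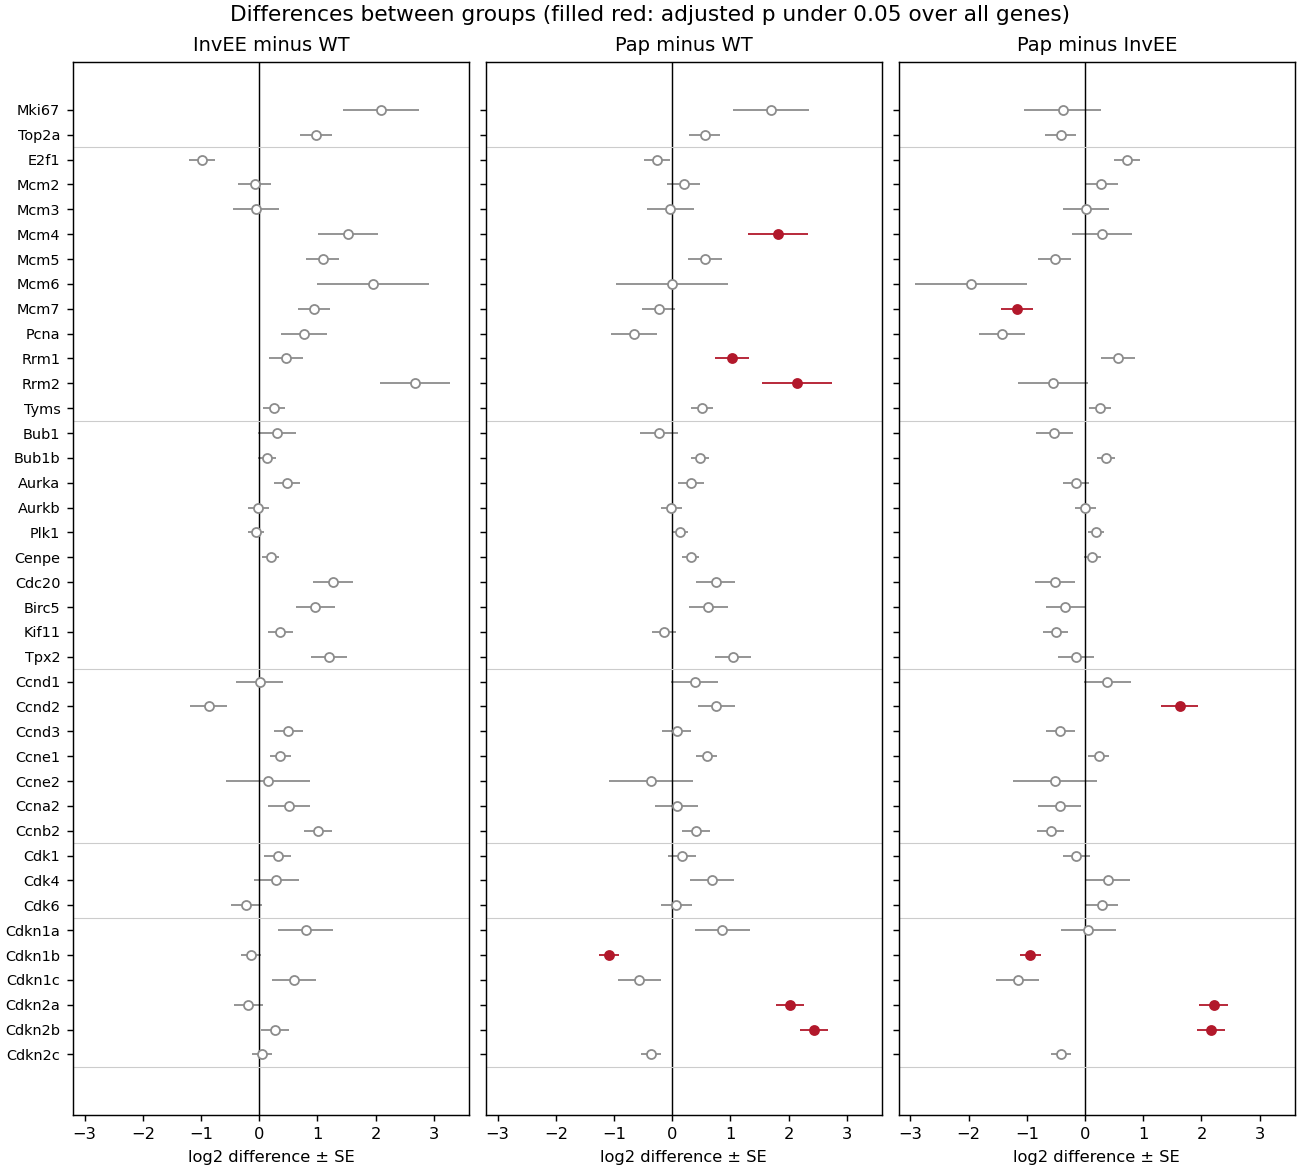
Log2 difference with its SE (x axis) for each of the 39 genes (y axis, grouped by role) in the 3 comparisons; filled red points have a limma adjusted p under 0.05 over all 18193 genes. No point is filled in InvEE minus WT, 6 are in Pap minus WT and 5 in Pap minus InvEE.

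None of the 10 mitosis genes passed the test in any comparison (limma). An unadjusted p under 0.05 was found for 4 of them in InvEE against WT (15.6% of all genes). It was found for 3 in Pap against WT (22.4% of all genes) and for 2 in Pap against InvEE (26.5% of all genes). The mean of the 10 per array was 6.16, 5.84, 6.25 and 6.02 in WT, 6.48, 6.71, 6.51 and 6.50 in InvEE, and 6.22, 6.44, 6.67 and 6.25 in Pap. InvEE lay wholly above WT in this mean and Pap overlapped both. The median difference was 0.33 in InvEE against WT and 0.32 in Pap against WT, where the medians of all genes were -0.09 and 0.04.

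Cdc20, which activates the anaphase-promoting complex, was at 7.17, 6.32, 7.11 and 6.78 in WT, 7.70, 7.99, 9.06 and 7.71 in InvEE, and 7.13, 7.68, 8.28 and 7.30 in Pap. The InvEE arrays lay above all WT arrays, by 1.27 ± 0.34 (limma adjusted p = 0.117), and its other 2 probe sets differed by 0.23 and 0.37. Tpx2, a spindle assembly factor that activates Aurora A, was at 5.67, 4.89, 5.79 and 5.09 in WT, 6.33, 6.57, 6.86 and 6.46 in InvEE, and 6.15, 6.45, 7.31 and 5.70 in Pap. It was dim in WT, and Pap 4 alone reached the WT range. Its difference from WT was 1.20 ± 0.31 in InvEE (limma adjusted p = 0.113) and 1.04 ± 0.31 in Pap (limma adjusted p = 0.0578), with a positive sign on all 4 of its probe sets in both. Of the 24 alternatives that measured Tpx2, the difference passed under 1 in InvEE and under 9 in Pap.

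Birc5, the survivin gene, whose product sits at centromeres and the cleavage site, was at 6.04, 5.89, 6.88 and 6.27 in WT, 6.98, 7.83, 6.88 and 7.25 in InvEE, and 6.67, 7.29, 7.55 and 6.07 in Pap. InvEE lay just above WT 3, the highest WT array, with a difference of 0.97 ± 0.33 (limma adjusted p = 0.208). Bub1b, which encodes the spindle checkpoint protein BubR1, was at 6.59, 6.56, 6.40 and 6.54 in WT, 6.58, 6.54, 6.75 and 6.73 in InvEE, and 6.71, 7.34, 6.83 and 7.13 in Pap. It lay wholly higher in Pap than in WT, by 0.48 ± 0.15 (limma adjusted p = 0.0743). Cenpe, a kinetochore motor, did so too, by 0.32 ± 0.15 (limma adjusted p = 0.225).

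On the probe sets used, the other mitosis genes overlapped between all groups. Aurka and Aurkb encode the Aurora kinases, Plk1 the Polo-like kinase, Kif11 a spindle motor and Bub1 a checkpoint kinase. Their differences from WT lay between -0.05 (Plk1) and 0.48 (Aurka) in InvEE and between -0.22 (Bub1) and 0.32 (Aurka) in Pap. Kif11 differed by -0.14 in Pap from WT, and its other 2 probe sets gave 0.32 and 0.79. The latter had InvEE (0.66) and Pap wholly above WT. The other Aurka probe set gave -0.36 in InvEE against WT, and Pap lay wholly above InvEE on it (0.42). None of these passed the test. Bub1 and Aurkb were dim in all groups, where a difference in level is less likely to be seen.

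Mki67, the gene of the Ki-67 antigen found in dividing cells, was at 7.35, 7.50, 8.46 and 5.29 in WT, 9.51, 9.54, 9.29 and 8.62 in InvEE, and 7.82, 8.29, 8.76 and 10.53 in Pap. The InvEE arrays lay above all WT arrays, and WT 4 and Pap 4 were the extremes of the 12. Its difference from WT was 2.09 ± 0.65 in InvEE (limma adjusted p = 0.171) and 1.70 ± 0.65 in Pap (limma adjusted p = 0.137), and the latter was 0.52 without WT 4 and Pap 4. Top2a, the topoisomerase that untangles replicated chromosomes, was at 6.73, 6.34, 6.69 and 5.63 in WT, 7.35, 7.89, 7.14 and 6.90 in InvEE, and 6.57, 7.17, 6.95 and 6.92 in Pap. InvEE lay wholly above WT, by 0.98 ± 0.27 (limma adjusted p = 0.127), and its other 2 probe sets gave -0.38 and 0.15.

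The 10 promoter windows of mitosis genes and proliferation markers held the CHR element in 7 cases and a CCAAT box in 9, and 7 held both, as did 6.95% of all windows; 0 held the E2F-type motif. Ccnb2, whose level in InvEE lay wholly above WT, is shown because its window was the only one of the 5 cyclin windows that held both (RefSeq, GRCm38.p6, 5′ to 3′ on the gene's strand, capitals as above).
Ccnb2 (chr9:70421505-70421804, minus strand): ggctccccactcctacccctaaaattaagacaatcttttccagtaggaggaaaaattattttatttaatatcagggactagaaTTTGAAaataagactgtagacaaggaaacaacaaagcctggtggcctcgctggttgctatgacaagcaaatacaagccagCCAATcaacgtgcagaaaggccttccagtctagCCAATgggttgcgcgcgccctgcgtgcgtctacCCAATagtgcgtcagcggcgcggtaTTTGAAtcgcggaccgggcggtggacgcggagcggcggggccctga
It held 3 CCAAT boxes, which start at 87, 54 and 21 bases before the transcript start, and 2 CHR elements. Of the 40 named genes 32 had a window, and Ccnd2 had none.

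**Figure D4:**
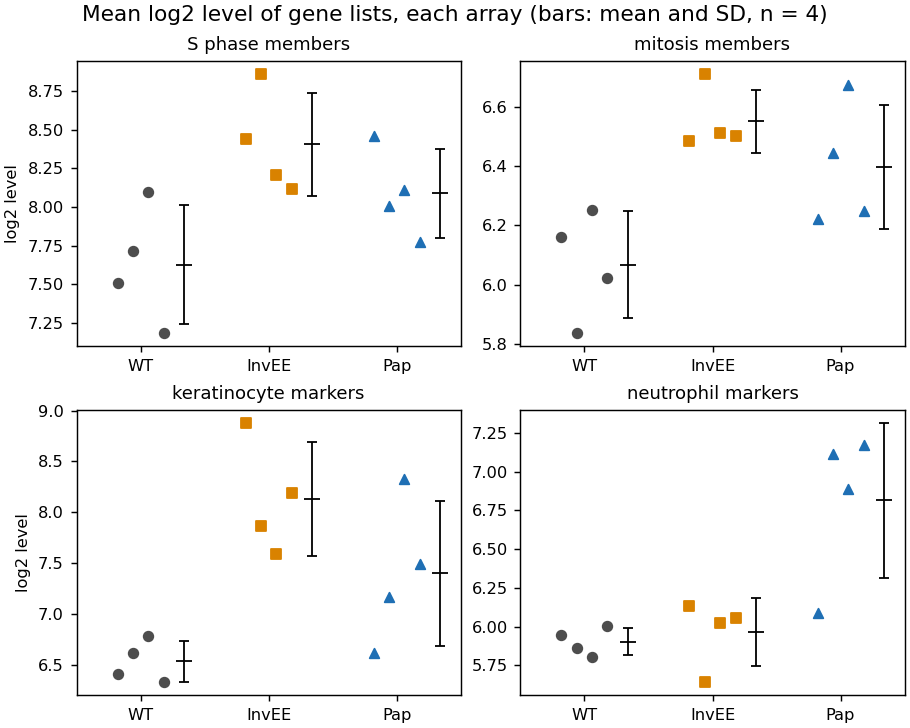
Mean log2 level (y axis) of the 11 S phase genes, the 10 mitosis genes, 12 keratinocyte markers and 4 neutrophil markers on each of the 12 arrays, by group (x axis); bars are the group mean and SD, n = 4. InvEE lies above WT in the S phase, mitosis and keratinocyte panels, and 3 of the 4 Pap arrays lie above the rest in the neutrophil panel.

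The wider cell cycle was read from 127 further genes, of which 122 were measured. In InvEE against WT 1 rose and 0 fell, in Pap against WT 3 rose and 3 fell, and in Pap against InvEE 2 rose and 5 fell. The shares of all genes that rose and fell were 0.258% and 0.275%, 4.85% and 4.8%, and 3.67% and 3.04% in the same order. The 3 of 122 that rose and the 3 that fell in Pap against WT are below those shares. By list, 0 of 29 genes of origin licensing and DNA replication rose in any comparison, and 2 fell in both Pap comparisons. Of 43 genes of mitosis and cytokinesis, 1 rose in InvEE against WT and 3 fell in Pap against InvEE. Of 18 E2F and pocket protein regulators 1 rose in both Pap comparisons, of 18 cyclin and CDK partners and ubiquitin ligases 1 fell in Pap against WT, and of 14 p53 targets 2 rose against WT and 1 against InvEE.

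Ube2c, the ubiquitin-conjugating enzyme of the anaphase-promoting complex, was at 7.42, 7.46, 8.32 and 7.44 in WT, 9.32, 9.12, 8.71 and 8.61 in InvEE, and 7.56, 7.98, 8.33 and 7.74 in Pap. It rose by 1.28 ± 0.25 in InvEE against WT (limma adjusted p = 0.0492), a call that held under 6 of 25 alternatives and was lost without any 1 array other than WT 3 and Pap 4. It is a 5th gene that fell in Pap against InvEE, by 1.04 ± 0.25 (limma adjusted p = 0.0298), named there after its value was seen. That fall held under 17 of 25 alternatives. E2f3, an activating E2F factor, was at 6.56, 6.60, 6.53 and 5.34 in WT, 7.09, 7.12, 7.05 and 7.41 in InvEE, and 8.48, 8.63, 8.08 and 8.21 in Pap, with no overlap between any groups. It rose by 2.09 ± 0.26 in Pap against WT (limma adjusted p = 0.000396, held under all 25 alternatives) and by 1.18 ± 0.26 against InvEE (limma adjusted p = 0.0203, held under 21, not without InvEE 1, InvEE 2, Pap 1 or Pap 2). A second E2f3 probe set gave 1.60 ± 0.29 and 0.94 ± 0.29, with adjusted p of 0.0049 and 0.0767 over all probe sets (limma). On that probe set InvEE overlapped both WT and Pap.

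Of the p53 targets, Pmaip1, which encodes the death-promoting protein NOXA, rose by 1.99 ± 0.45 in Pap against WT (limma adjusted p = 0.0149), from a dim WT mean of 4.27; without WT 4 and Pap 4 the difference was 1.61 (limma adjusted p = 0.0723). Zmat3, an RNA-binding p53 target, rose by 1.11 ± 0.28 against WT and by 1.10 ± 0.28 against InvEE (limma adjusted p = 0.0254 and 0.0352), but the calls held under 17 and 14 of 25 alternatives. The first was lost without WT 1, WT 2, WT 3, Pap 1, Pap 2 or Pap 3, and the second without WT 2, any 1 InvEE array, Pap 1, Pap 2 or Pap 3. Prim1, the primase subunit that starts new DNA strands, was at 9.88, 9.37, 8.50 and 10.21 in WT, 9.08, 9.08, 8.47 and 8.61 in InvEE, and 6.70, 7.93, 7.39 and 7.22 in Pap, wholly below both other groups. It fell by 2.18 ± 0.35 against WT and by 1.50 ± 0.35 against InvEE (limma adjusted p = 0.00223 and 0.0263). A second Prim1 probe set gave -2.12 ± 0.53 and -1.33 ± 0.53, with adjusted p of 0.0288 and 0.152 over all probe sets (limma). On that probe set Pap overlapped both other groups. Tipin, a replication fork protein, fell by 0.76 ± 0.18 and 0.82 ± 0.18 (limma adjusted p = 0.0198 and 0.019), and Anapc5, a subunit of the anaphase-promoting complex, fell by 0.88 ± 0.18 against WT (limma adjusted p = 0.00976). With equal ribosomal protein means, the falls of Tipin in both comparisons, of Anapc5 and of Prim1 against InvEE did not pass (limma adjusted p = 0.222, 0.198, 0.154 and 0.0561). The falls of Prim1 and Tipin against InvEE also did not pass without InvEE 1, InvEE 2, InvEE 4 or Pap 1, and that of Tipin against WT without Pap 1. Of the 25 alternatives, the fall of Prim1 against InvEE held under 17. That of Tipin held under 19 against InvEE and under 22 against WT.

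Against InvEE, Pap levels also fell for Nusap1, a spindle protein, by 1.49 ± 0.30 (limma adjusted p = 0.012), to a dim Pap mean of 5.50 (WT was dim too, so the size is uncertain), and for Smc4, a condensin subunit, by 1.27 ± 0.26 (limma adjusted p = 0.0145). The second Nusap1 probe set gave 0.35, the opposite sign, and the other 2 of Smc4 gave -1.69 and -0.13. With spike level added to the model neither passed (limma adjusted p = 0.0679 for Nusap1 and 0.49 for Smc4), and Smc4 did not pass without InvEE 1 (limma adjusted p = 0.0545).

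**Figure D5:**
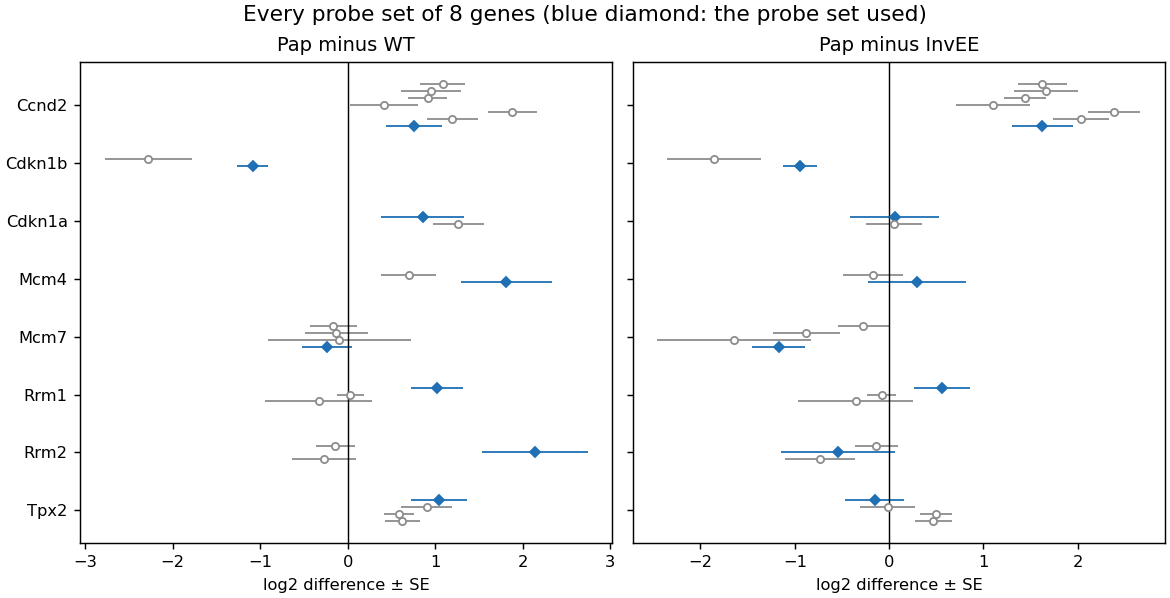
Log2 difference with its SE (x axis) of every probe set of 8 genes (y axis) in Pap minus WT and Pap minus InvEE; blue diamonds are the probe set used for the gene and open circles its others. All 7 Ccnd2 probe sets are above 0 and both of Cdkn1b below 0 in each panel, while in Pap minus WT the 2 other Rrm2 probe sets lie below 0, at -0.14 and -0.27.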

How the data were processed

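The 12 arrays (4 each of WT, InvEE and Pap) were read from the authors' deposited table of log2 values for 45101 probe sets, which lie between 2.08 and 14.955. The submitters' processing notes name limma; which background correction and normalisation made the deposited values was not stated in the labels. The quartiles of the arrays spanned 0.284 and 0.276, so the arrays were quantile normalised. The 64 Affymetrix control probe sets, 932 probe sets with several symbols and 9160 without a symbol were left out. Each of 18193 genes was represented by its probe set with the highest mean.

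One model with a mean per group was fitted to all 12 arrays with limma 3.58.1 in R 4.3.3 (lmFit, eBayes), with Benjamini-Hochberg adjustment over all genes. The procedure was tested on simulated data. Within groups, arrays correlated between 0.8928 and 0.9886, and at most 0.253% of values were identical between arrays. The number of arrays limits the precision. Promoter windows came from RefSeq (GRCm38.p6).

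All members were described. Of the further cell cycle genes, at most the 4 with the smallest adjusted p per direction and comparison were named. The members, lists and tests were chosen with earlier results of these data known. The 25 alternatives varied the normalisation, probe set, filter, model and arrays; leaving out WT 4 and Pap 4 together was chosen after seeing the data.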

Additional observations from a re-analysis of the deposited data

Results flagged for a closer look

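In 11 of the 117 sets of 4 arrays tested (39 genes in 3 groups), 1 array stood apart from the other 3 of its group by Dixon's criterion at the 95% level, which chance meets in about 1 of 20 sets. Pap 4 stood apart in 3 of them and WT 4 in 0. On Pap 4, E2f1 was at 9.10 (other Pap arrays 8.09 to 8.21), Mcm6 at 3.83 (8.08 to 8.74) and Pcna at 8.45 (9.92 to 10.10). On Pap 1, Cdkn1c was at 7.97 (7.42 to 7.49), Mcm2 at 8.31 (7.62 to 7.70) and Kif11 at 5.82 (6.31 to 6.33). On WT 1, Ccnb2 was at 5.82 (6.63 to 6.68) and Aurka at 7.07 (6.14 to 6.26). On InvEE 1, Cdkn2a was at 6.62 (6.16 to 6.23) and Cenpe at 6.66 (6.37 to 6.39), and on InvEE 3 Aurka was at 6.52 (6.99 to 7.06). Pap 4 also had the highest spike level of the 12 arrays, 12.50, and the largest Gapdh 3′ minus 5′ difference, 3.76. The part of these in the values above was not tested.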

How the results depend on the processing

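The number of members called in InvEE against WT was 0, and 1 with the mean of all probe sets, with only the 2 groups compared, and without WT 4 and Pap 4; it was 7 with array weights, and 0 to 2 when single arrays were left out (1 without WT 3, 2 without Pap 4). In Pap against WT it was 6, 3 with only the 2 groups compared, and 3 to 5 when single arrays were left out, with 3 without any 1 InvEE array. In Pap against InvEE it was 5, 3 with plain probe sets, 2 with the spike covariate, and 4 to 6 when single arrays were left out. With equal ribosomal protein means the members' median was 0.17, 0.52 and 0.24 in the 3 comparisons, as this scaling moved the median of all genes by -0.19, 0.20 and 0.39; with the spike covariate it was 0.12 in Pap against InvEE. The rises against WT turned to -0.27 for Rrm2 (plain probe sets) and -0.33 for Rrm1 (most variable probe set); the cause was not tested.

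Over all genes, calls in InvEE against WT numbered 97, and 0 without WT 1, InvEE 1 or InvEE 2 or with the spike covariate (where 2206 had an unadjusted p under 0.05), 13 without WT 2, 249 without Pap 4 and 839 with array weights (limma). Calls numbered 1756 in Pap against WT (1094 with only the 2 groups), and 1221 in Pap against InvEE, 3025 with equal ribosomal protein means, 2813 with array weights, 259 with the spike covariate and 578 to 1581 when single arrays were left out. The share of calls that were higher was 48.5%, 50.3% and 54.7%, against 27.2%, 68.9% and 90.1% with equal ribosomal protein means; in Pap against InvEE it was 66.8% with equal medians and 71.0% with the spike covariate.

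Over all genes, the deviations of samples with the same replicate number correlated weakly (-0.0943 to 0.1768). The spike levels of replicates 1 to 4 ran in the same order in WT (10.33, 10.22, 9.24 and 12.24) and in Pap (10.98, 10.56, 9.78 and 12.50). In InvEE they did not (8.60, 8.09, 8.04 and 7.76). Weak correlations over all genes do not decide whether the number pairs samples, for instance by a shared run. With the replicate number as a block, 0, 5 and 5 members were called and 57 genes in InvEE against WT; Rrm1, Rrm2, Zmat3 (both comparisons) and Ube2c (InvEE against WT) did not pass. Signal limits what can be seen of Bub1, Aurkb and Ccne2, which were dim in every group.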
